A study of Mus musculus with 18 samples.

Results

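The genes described here make phosphatidylcholine and phosphatidylethanolamine, the main phospholipids of liver membranes. They are the choline kinases Chka and Chkb, the ethanolamine kinases Etnk1 and Etnk2, the CDP-forming enzymes Pcyt1a and Pcyt2, the phosphotransferases Chpt1 and Cept1, the methyltransferase Pemt and the acyltransferase Lpcat3. Members were the non-control probes that carry one of these symbols, or the older name Mboat5 with the RefSeq transcript of Lpcat3. This gave 10 genes and 20 probes out of 31709 genes and 39429 probes, and 9 of the 10 genes were among the 15951 that could be tested.

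RNA was taken from the liver of 18 male mice of the inbred strain C57BL/6J, of which 8 ate a linseed oil diet and 10 a palm oil diet. All mice were 13 weeks old and had eaten a high-fat diet for 5 weeks, so no group had a low-fat diet. Linseed fat held 9.7% saturated, 22.5% monounsaturated and 66.7% polyunsaturated fatty acids, with 49.7% alpha-linolenic acid, and palm fat held 55.6%, 34.8% and 8.8%. Each mouse had its own 1-colour array. The arrays form 5 sets that each held both diets, of which slides 2 to 5 are given by header barcodes. The 3 arrays called slide 1 (linseed 5, palm 5 and palm 6) have no barcode and are grouped because they share a scan group, so that they lay on 1 slide is an assumption. Mice were housed together, and which mice shared a cage is not in the labels, so the p-values treat each mouse as an independent sample.

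Choline and ethanolamine enter phospholipids by parallel routes of the same design, known as the Kennedy pathway. A kinase adds a phosphate, a second enzyme turns the product into an activated CDP form, and a phosphotransferase joins it to diacylglycerol. The middle step, run by Pcyt1a and Pcyt2, usually limits the flow. Hepatocytes have a further source of phosphatidylcholine, because Pemt methylates phosphatidylethanolamine step by step, and Lpcat3 afterwards exchanges a fatty acyl chain, with a preference for polyunsaturated ones.

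The arrays read transcripts, and the bases before their starts are shown here for Chkb and Chpt1, 2 of the 3 members called different between the diets. Pcyt1a, which forms CDP-choline and was not called, is shown beside them. Each sequence is the 250 bases before the transcript start in RefSeq (GRCm38.p6), read in the direction of the gene. Chkb lies at chr15:89429928-89430177 on the minus strand, where it overlaps the gene C730034F03Rik. Chpt1 lies at chr10:88503971-88504220 on the minus strand and Pcyt1a at chr16:32430671-32430920 on the plus strand, both outside any gene in the RefSeq table. Pcyt1a has 3 annotated starts, and the stretch before the one farthest upstream is shown. Capitals mark 3 kinds of promoter motif, searched on both strands. They are the GC box, spelled GGGCGG and bound by Sp1-type factors, the CCAAT box, spelled as its name, and a sterol regulatory element, spelled TCACNCCAC.
Chkb: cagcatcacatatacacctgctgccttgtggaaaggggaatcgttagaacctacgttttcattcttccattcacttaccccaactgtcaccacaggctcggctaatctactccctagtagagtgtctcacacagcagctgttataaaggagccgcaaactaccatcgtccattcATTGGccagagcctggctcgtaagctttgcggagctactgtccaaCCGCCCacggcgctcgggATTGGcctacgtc
Chpt1: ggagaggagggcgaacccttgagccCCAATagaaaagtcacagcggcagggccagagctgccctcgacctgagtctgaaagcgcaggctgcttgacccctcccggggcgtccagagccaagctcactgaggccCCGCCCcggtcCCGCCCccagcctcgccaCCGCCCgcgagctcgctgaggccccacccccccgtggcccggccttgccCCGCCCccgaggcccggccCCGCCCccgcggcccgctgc
Pcyt1a: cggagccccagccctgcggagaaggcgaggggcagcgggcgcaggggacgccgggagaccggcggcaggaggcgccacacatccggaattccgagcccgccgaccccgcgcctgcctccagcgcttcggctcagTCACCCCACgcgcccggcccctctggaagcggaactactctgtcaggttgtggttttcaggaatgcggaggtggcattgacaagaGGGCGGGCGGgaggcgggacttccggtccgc
The Chpt1 stretch held 5 GC boxes and 1 CCAAT box, the Chkb stretch 1 and 2, and this Pcyt1a stretch held 2 overlapping GC boxes and the sterol element. The stretch before the second Pcyt1a start overlaps it and also held 2 GC boxes and the element, while the stretch before the third held neither. Chpt1 had 23 CG dinucleotides, Pcyt1a 28 and Chkb 12, against a median of 6 over 32536 promoters of the same length. The stretch before Etnk1, the remaining called member, is not printed. It held 2 GC boxes, no CCAAT box and 31 CG dinucleotides.

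RefSeq held 14 such stretches for 9 of the 10 members, since Pcyt1a and Cept1 have 3 starts and Pemt has 2, and some of these overlap. A GC box was present in 10 of the 14 (in 8 genes), against 33.0% of all promoters, and a CCAAT box in 5 of the 14, against 33.8%. The sterol element, found in 1.04% of promoters, occurred in the 2 overlapping Pcyt1a stretches and in no other member. None of the 14 held the E-box CACGTG (6.04% of promoters), the nuclear receptor half-site AGGTCA (14.0%), or that half-site repeated in the same direction 1 base apart, the form PPAR binds (0.0338%), or 4 bases apart, the form LXR binds (0.0154%). These matches describe letters in a short window and say nothing about binding.

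Values are given as log2 of the background-subtracted spot signal minus the array's 75th percentile, so that a value of 0 is the level of the 75th percentile spot and a difference of 1 is a doubling of signal. They compare a gene with itself across mice and do not rank genes by abundance. A gene was called when its Benjamini-Hochberg adjusted p over all 15951 genes, from limma, was under 0.05. Errors on differences are standard errors, and those on group means are SDs.

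Rose and fell are used here for linseed relative to palm. No other diet group was measured, so a rise on linseed cannot be told apart from a fall on palm. Chkb, Etnk1 and Chpt1 were called higher on linseed and no tested member was called lower. These 3 of the 9 tested members compare with 0.759% of all tested genes called in either direction and 0.57% called higher on linseed (91 genes, against 30 called lower). The members were chosen with earlier results of these data known, so the counts are a description and not a test. Cept1 was also higher, by 0.24 ± 0.079, but was not called. The other 5 tested members differed by less than their standard errors. Over the 9 tested members the median difference was 0.094 and 6 were higher on linseed, against a median of -0.0038 and 48.7% higher over all tested genes. At an unadjusted p under 0.05 there were 4 members, against 10.2% of all genes.

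**Figure D1:**
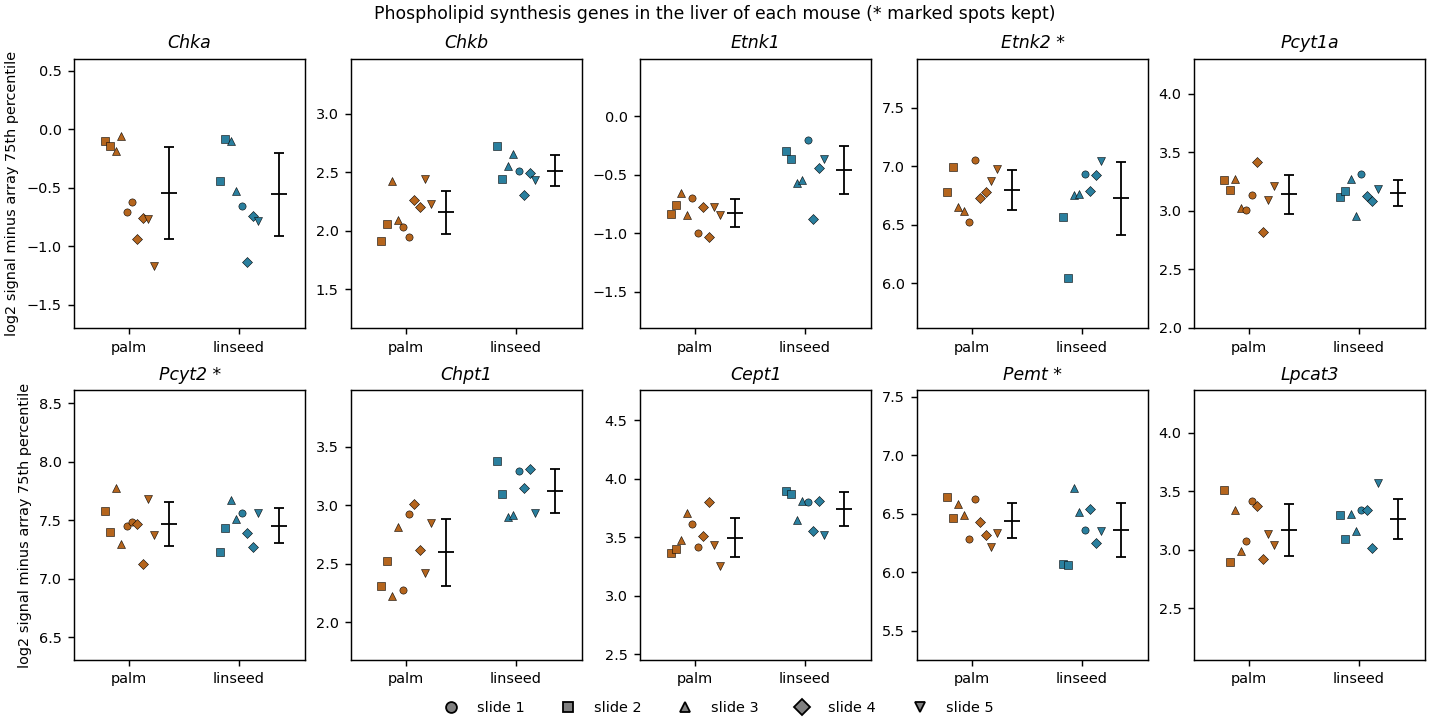
Each point is 1 mouse, with the log2 signal minus the array's 75th percentile on the vertical axis (every panel spans the same range of log2 units) and the diet on the horizontal axis; symbols give the slide and bars the group mean ± SD. Chkb, Etnk1, Chpt1 and Cept1 lie higher on linseed with overlapping groups, while Chka follows the slide, with slides 2 and 3 at the top in both diets; an asterisk marks genes shown with marked spots kept.

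Of the choline kinases, which trap choline in the cell as phosphocholine, Chkb rose on linseed and Chka did not. Chkb values ran from 2.30 over a median of 2.50 to 2.72 on linseed, and from 1.91 over 2.15 to 2.44 on palm. All 8 linseed mice lay above the palm median and all 10 palm mice below the linseed median, and the groups overlapped only between linseed 6 or linseed 8, the lowest linseed mice, and palm 3 or palm 9, the highest palm mice. The group means were 2.52 ± 0.13 (n = 8) and 2.16 ± 0.18 (n = 10). Their difference was 0.35 ± 0.081, with a 95% interval of 0.18 to 0.52, which is 1.28-fold (limma, adjusted p = 0.0493). Chkb thus stood just inside the threshold, as the gene ranked 115 by p.

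Chkb is read by 1 probe at chr15:89257068-89257276 on the minus strand (mm9), a span of 209 bases where most member probes span 60. Its neighbour Cpt1b, which moves long-chain fatty acids into mitochondria, starts 486 bases past the end of Chkb in GRCm38.p6, and the annotation holds a read-through transcript across both genes. The file lists that transcript for both Cpt1b probes and not for the Chkb probe. Cpt1b was higher on linseed by 0.66 ± 0.17 at its brighter probe, which was not called (limma, adjusted p = 0.0967), and by 0.80 ± 0.29 at the other. Both Cpt1b probes were dim. Means at the brighter one were -2.69 on linseed and -3.35 on palm, and the other was well above background on 15 of 18 arrays. Whether read-through RNA reached the Chkb probe was not tested.

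Chka went with the slide and not with the diet. Its values ran from -1.14 over -0.59 to -0.08 on linseed and from -1.17 over -0.66 to -0.06 on palm, so that both groups covered the same range. The difference was -0.013 ± 0.17, with a 95% interval of -0.37 to 0.34 (limma, adjusted p = 0.990). Slide means were -0.66, -0.19, -0.22, -0.89 and -0.91 for slides 1 to 5, and slide took a share of 0.814 of the variance left after the diet, against a median of 0.379 over all genes. With slide as a fixed block the difference was -0.067 ± 0.089. The 4 Chka probes, which cover the transcripts NM_013490 and NM_001025566, differed by -0.17 to 0.068 and none was called.

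The ethanolamine kinases make phosphoethanolamine, and of these Etnk1 rose on linseed. Its values ran from -0.88 over -0.41 to -0.20 on linseed and from -1.04 over -0.81 to -0.66 on palm. The 10 palm mice lay close together, and 7 of the 8 linseed mice were above every one of them. The exception was linseed 6, which ranked 16th of 18. The group means were -0.46 ± 0.21 (n = 8) and -0.82 ± 0.12 (n = 10), a difference of 0.36 ± 0.082 with a 95% interval of 0.19 to 0.54, or 1.29-fold (limma, adjusted p = 0.0429). Etnk1 was higher in all 37 alternatives and called in 11 of them. With normexp background correction the difference was 0.21 (limma, adjusted p = 0.444). In the authors' deposited values it was 0.26 (limma, adjusted p = 0.0847), so neither setting called it. The Etnk1 probe lies at chr6:143154833-143154892 on the plus strand (mm9).

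Etnk2, the ethanolamine kinase best known from liver, showed no call at any of its 4 probes, which differed by -0.27 to -0.059. The probe that stood for it by brightness, at chr1:135271556-135271615 (plus strand, mm9), belongs to a predicted transcript, with a difference of -0.27 ± 0.27 (limma, adjusted p = 0.807). Of the probes of the RefSeq mRNA NM_175443, the one at chr1:135262332-135262391 carried no image marks and differed by -0.059 ± 0.10. The other, at chr1:135276803-135276862, is the brightest Etnk2 probe but was marked on 7 of 18 arrays, and is given with the marked spots kept. There, values ran from 6.04 over 6.78 to 7.05 on linseed and from 6.52 over 6.78 to 7.06 on palm, a difference of -0.070 ± 0.11. Linseed 1 and linseed 2, both on slide 2, were among the lowest, and slide 2 was the slide with a negative difference, of -0.58, while the other slides gave 0.10 to 0.14.

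The enzymes that form the CDP intermediates did not differ detectably. Pcyt1a, on the choline side, ran from 2.96 over 3.15 to 3.31 on linseed and from 2.81 over 3.15 to 3.41 on palm, with medians that agree to 2 decimals. The difference was 0.013 ± 0.075, and its 95% interval of -0.14 to 0.17 leaves out the differences seen for Chkb, Etnk1 and Chpt1 (limma, adjusted p = 0.975). Pcyt2, on the ethanolamine side, was marked by the image software on 12 of 18 arrays at its 1 probe and could not be tested. With the marked spots kept it ran from 7.23 over 7.47 to 7.67 on linseed and from 7.13 over 7.46 to 7.78 on palm. That difference was -0.011 ± 0.085, with a 95% interval of -0.19 to 0.17 (limma, adjusted p = 0.980). Pcyt1a is read at chr16:32472042-32472101 (plus strand) and Pcyt2 at chr11:120471402-120471461 (minus strand), both mm9.

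Chpt1, the phosphotransferase that makes phosphatidylcholine from CDP-choline, had the largest difference among the members. Its values ran from 2.90 over 3.12 to 3.37 on linseed and from 2.23 over 2.57 to 3.01 on palm. All 8 linseed mice lay above the palm median and all 10 palm mice below the linseed median, and the overlap came from linseed 3, 4 and 8 and from palm 6 and 7. The group means were 3.12 ± 0.19 (n = 8) and 2.60 ± 0.29 (n = 10). The difference of 0.52 ± 0.12, with a 95% interval of 0.28 to 0.77, is 1.44-fold (limma, adjusted p = 0.0407).

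This call came from 1 of the 3 Chpt1 probes, at chr10:87951131-87951190 (minus strand, mm9). The second probe of the same mRNA, NM_144807, lies 14237 bases further along the gene, at chr10:87936834-87936893, and differed by 0.14 ± 0.31. Its standard error is 2.69 times that of the first probe, and its 95% interval runs from -0.52 to 0.79. Values at this second probe ran from -1.32 over -0.64 to -0.29 on linseed and from -1.80 over -1.11 to 1.41 on palm. This probe was not called (limma with every probe on its own, adjusted p = 0.926). The palm range was wide (SD 0.89, against 0.38 on linseed), and its part in the mean difference was not tested. At the medians linseed was higher, with 6 of 8 linseed mice above the palm median and 8 of 10 palm mice below the linseed median. The difference between the probes was not tested. The third, assigned to another transcript, was well above background on 0 of 18 arrays. With the probes averaged, Chpt1 differed by 0.33 and was not called (limma, adjusted p = 0.585, within a range of 0.0200 to 0.585 over all alternatives).

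Cept1 accepts both CDP-choline and CDP-ethanolamine. Its values ran from 3.52 over 3.81 to 3.89 on linseed and from 3.25 over 3.45 to 3.80 on palm. All 8 linseed mice were above the palm median and all 10 palm mice below the linseed median, with palm 4, 5 and 8 reaching into the linseed range. The difference of 0.24 ± 0.079, with a 95% interval of 0.076 to 0.41, was positive but did not pass the adjustment (limma, p = 0.00651, adjusted p = 0.237). Its probe lies at chr3:106305927-106305986 on the minus strand (mm9).

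Pemt, the methyltransferase, did not differ detectably. Its brightest probe, at chr11:59784123-59784182 (minus strand, mm9), was marked on 9 arrays, and with marked spots kept it ran from 6.07 over 6.36 to 6.72 on linseed and from 6.22 over 6.45 to 6.65 on palm. Linseed 1 and linseed 2 were the lowest of the 18, and slide 2, on which they lie, gave -0.49. The difference was -0.082 ± 0.091, with a 95% interval of -0.27 to 0.11 (limma, adjusted p = 0.819). In the fit that leaves marked spots out, a second probe overlapping the first by 23 bases stood for Pemt with 6 linseed and 8 palm arrays, and differed by -0.075 ± 0.12 (limma, adjusted p = 0.887). The last Pemt probe, at chr11:59787580-59787639, overlaps neither and was marked on 2 arrays. With marked spots left out it differed by -0.041 ± 0.11 (limma with every probe on its own, adjusted p = 0.938).

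Lpcat3, the acyltransferase, ran from 3.01 over 3.30 to 3.57 on linseed and from 2.89 over 3.104 to 3.51 on palm. The groups overlapped over most of their range. The difference was 0.094 ± 0.097, with a 95% interval of -0.11 to 0.30 (limma, adjusted p = 0.810). Its probe lies at chr6:124653374-124653542 on the plus strand (mm9).

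**Figure D2:**
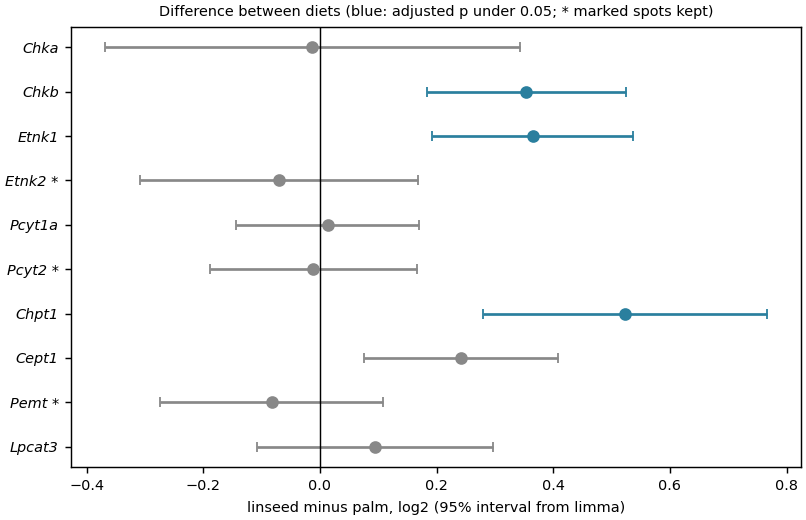
Points are the difference between diets (linseed minus palm, log2) for each member, with 95% intervals from limma. The intervals of Chkb, Etnk1 and Chpt1 (blue, called) and of Cept1 (grey, not called) lie above 0, and those of the other 6 members include it.

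Slide moved with many values on these arrays, and the diets were therefore also compared inside each slide, with slide 1 being the assumed one. Chkb was higher on linseed in 5 of 5 slides, by 0.52, 0.60, 0.34, 0.17 and 0.099 for slides 1 to 5. Etnk1 was higher by 0.64, 0.47, 0.19, 0.25 and 0.44. Chpt1 was higher by 0.69, 0.82, 0.39, 0.41 and 0.30. Cept1 was also higher in every slide, by 0.29, 0.50, 0.14, 0.024 and 0.18. Of all genes with a value in each diet on every slide, 6.99% were higher on linseed in all 5. The differences of Chkb, Chpt1 and Cept1 were largest on slides 1 and 2. Lpcat3 was higher in 4 of 5 slides, and Chka and Pcyt1a in 2 of 5.

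With slide as a fixed block, the differences barely moved, at 0.35 for Chkb, 0.38 for Etnk1 and 0.53 for Chpt1, and only Etnk1 kept its call (adjusted p = 0.0398, against 0.0562 for Chkb and 0.0516 for Chpt1), where 0.583% of all genes were called higher. With slide as a random block all 3 were called (adjusted p of 0.0181 to 0.0238), where 0.915% were called higher. Over all alternatives the adjusted p ranged from 0.0238 to 0.529 for Chkb and from 0.00668 to 0.444 for Etnk1.

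**Figure D3:**
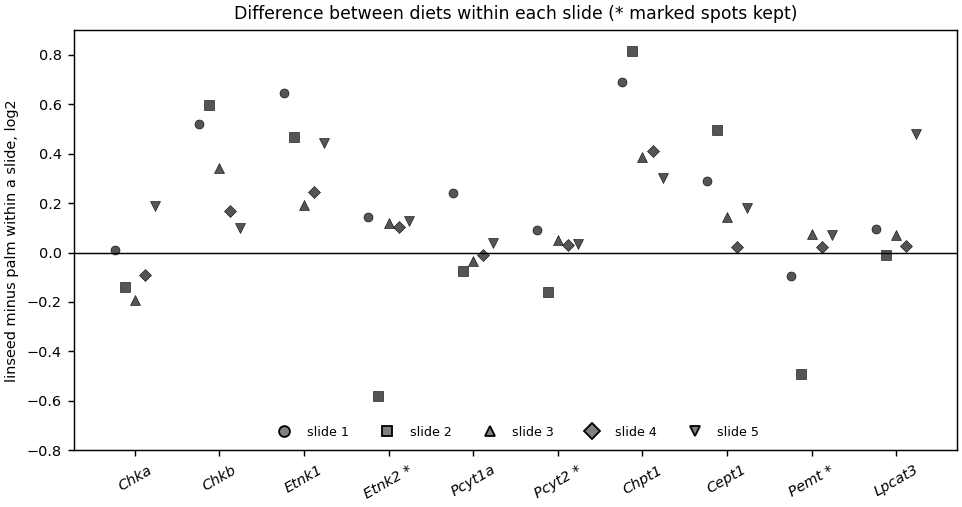
Each symbol is the difference between the diet means (linseed minus palm, log2) inside 1 of the 5 slides, for each member; an asterisk marks genes shown with marked spots kept. Chkb, Etnk1, Chpt1 and Cept1 lie above 0 on every slide, and slide 2 gives the lowest value for Etnk2 (-0.58) and Pemt (-0.49).

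Single mice also bore on the calls, since all 3 lay near the threshold. Without linseed 1, 2, 3, 5 or 7 or palm 1, 2, 5 or 8 no member was called. Leaving out linseed 4, linseed 8, palm 4, palm 6, palm 7 or palm 10 left Chpt1 alone, and leaving out palm 9 left Chkb alone. Without linseed 6 or palm 3, Chkb and Etnk1 were called. The differences themselves stayed within 0.32 to 0.38 for Chkb, 0.33 to 0.42 for Etnk1 and 0.48 to 0.57 for Chpt1. Without slide 1, or without slides 4 and 5, no member was called, at differences of 0.31 and 0.50 for Chkb, 0.32 and 0.40 for Etnk1 and 0.50 and 0.60 for Chpt1.

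**Figure D4:**
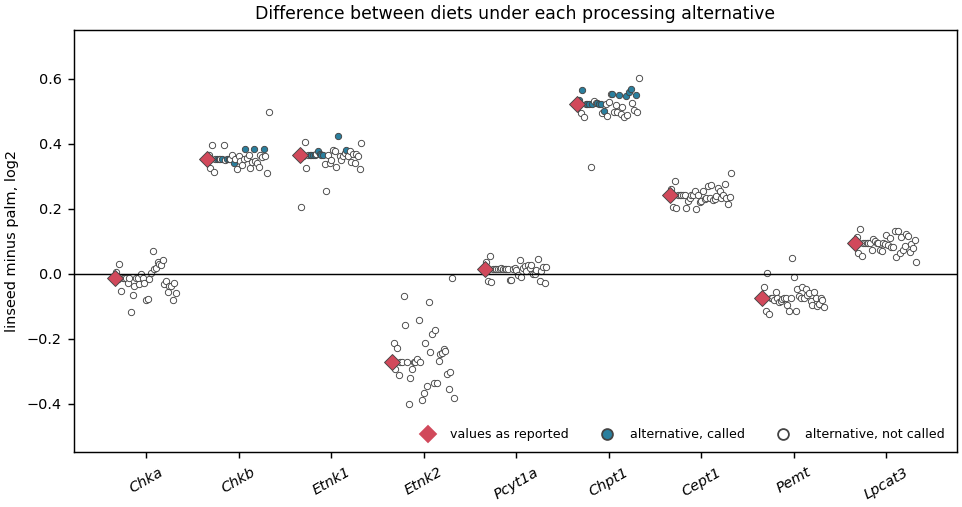
Each small circle is a member's difference between diets (linseed minus palm, log2) under 1 processing alternative or with 1 array left out, filled where the gene was called, and the diamond is the value reported. Chkb stays within 0.31 to 0.50, Etnk1 within 0.21 to 0.42 and Chpt1 within 0.33 to 0.60, all above 0, while Chka, Pcyt1a and Pemt cross 0; Pcyt2, which has no value in most settings, is not drawn.

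Of 5 pairs of members, Chkb and Chka, Etnk1 and Etnk2, and Chpt1 and Cept1 act at the same step. Pcyt1a and Pcyt2 act in parallel routes, and Pemt and Pcyt1a in different routes to phosphatidylcholine. Each pair was compared by the difference between its log2 values on the same array. The test was an exact two-sided permutation test over mice, with Benjamini-Hochberg adjustment over the 5 pairs. This asks whether one gene moved more than the other. Etnk1 rose relative to Etnk2 by 0.43, with a 95% interval of 0.12 to 0.76 (exact p = 0.00734, adjusted p = 0.0367, marked spots kept). Etnk2 was lowest in linseed 2 and low in linseed 1, and without either of these the change was 0.32 or 0.39 (exact permutation test, adjusted p = 0.0760 and 0.0800). The call was also lost without linseed 5 or palm 1, 2, 6, 8 or 9, with slide as a block (0.42, adjusted p = 0.0604), with normexp background correction (0.27, adjusted p = 0.322) and without slides 4 and 5 (0.56, adjusted p = 0.0812), in a range of adjusted p from 0.00674 to 0.322.

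Chkb moved relative to Chka by 0.37, with an interval of -0.056 to 0.79 (exact p = 0.0830, adjusted p = 0.138). With labels permuted inside slides, where the slide-bound spread of Chka drops out, the change was 0.39 and was called (exact adjusted p = 0.0309, in a range of 0.0309 to 0.285). Chpt1 moved relative to Cept1 by 0.28, with an interval of 0.0029 to 0.56 (exact p = 0.0477, adjusted p = 0.119), so a larger rise of Chpt1 did not pass the adjustment. Without palm 10 that change was 0.34 and passed (exact adjusted p = 0.0423, in a range of 0.0423 to 0.731). Pcyt1a moved relative to Pcyt2 by 0.025, with an interval of -0.13 to 0.18 (exact p = 0.731, adjusted p = 0.731). For Pemt relative to Pcyt1a, the methylation route against the CDP-choline route, the change was -0.13 with an interval of -0.34 to 0.070 (6 linseed and 8 palm mice, exact p = 0.200, adjusted p = 0.251).

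**Figure D5:**
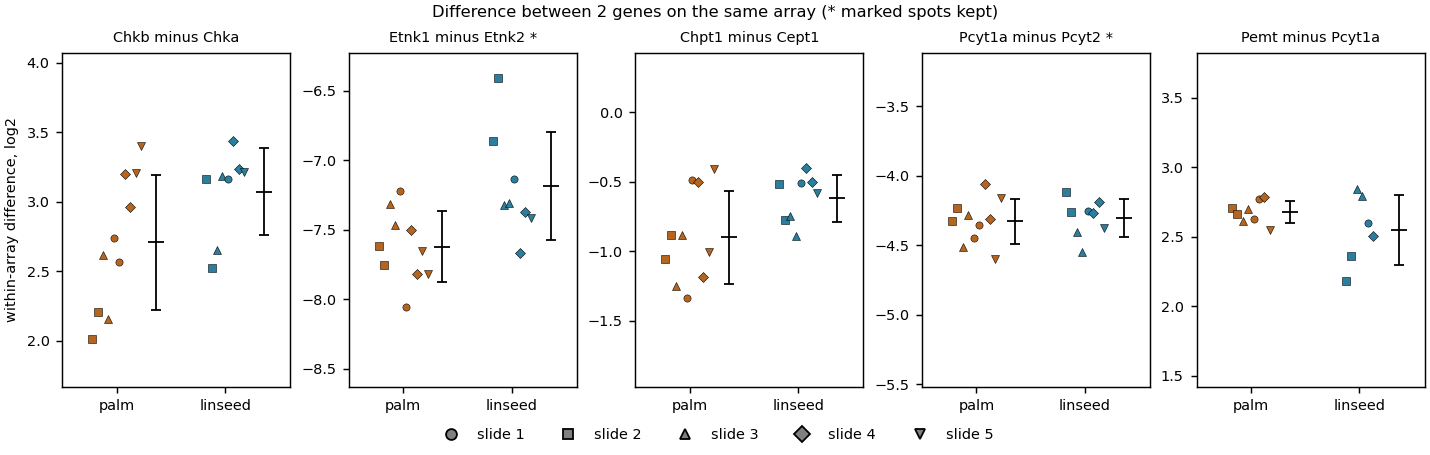
Each point is the difference between 2 members' log2 values on 1 array, by diet, with symbols for slides and bars for the mean ± SD; an asterisk marks pairs with marked spots kept, and only the change between diets can be read, since probes differ in brightness. Etnk1 minus Etnk2 is higher on linseed by 0.43, with linseed 1 and 2 of slide 2 at the top.

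Around the pathway, 9 lists of 90 genes were counted in the same fit, of which 74 were tested. Of these, 4 were called higher and 1 lower, where 0.57% of all tested genes were called higher and 0.188% lower. Choline and ethanolamine entry and choline oxidation had 0 of 7 tested genes called (median -0.035), with the smallest p for the choline transporter-like gene Slc44a3 (-0.46 ± 0.14, adjusted p = 0.193). The supply of methyl groups to Pemt had 0 of 7 (median -0.12), led by Ahcy, which removes the inhibitory product of methylation (0.24 ± 0.10, adjusted p = 0.411). The phosphatidylserine route and further isoenzymes of the CDP pathways had 0 of 7 (median 0.027), led by Selenoi, an ethanolamine phosphotransferase (0.12 ± 0.068, adjusted p = 0.583). None of the genes tested that feed the members, or work beside them, was called. With 0.759% of all tested genes called, lists of this size can hold no call without differing from other genes.

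Downstream of synthesis, acyl chain remodelling had 0 of 10 called (median 0.043), led by the phospholipase Pla2g12a (0.59 ± 0.20, adjusted p = 0.255). Breakdown of the same phospholipids had 0 of 12 (median 0.093), led by the phospholipase D gene Pld1 (-0.16 ± 0.10, adjusted p = 0.621). The acidic phospholipids and cardiolipin had 0 of 6 (median 0.088), led by the cardiolipin synthase Crls1 (0.23 ± 0.080, adjusted p = 0.271). The exception was phosphatidylcholine transfer and export, with 1 of 8 called (median 0.036). This was Pctp, which carries phosphatidylcholine between membranes and was 2.26 ± 0.20 on linseed and 1.82 ± 0.21 on palm, a rise of 0.44 ± 0.097 or 1.35-fold (adjusted p = 0.0418). Pctp stayed higher in all 37 alternatives, by 0.37 to 0.49, but was called in 15 of them, with adjusted p from 0.0155 to 0.389. It kept its call with slide as a fixed block (0.0298) and lost it with normexp, quantile scaling, the percentile over unmarked spots, no filter, array weights, the authors' table, the replicate block, the 1.5-fold rule and without slide 1 or slides 4 and 5. It also lost it without linseed 1, 2, 3, 4, 5, 6 or 8 or palm 1, 2, 4, 5 or 9. All adjusted p-values of these lists are from limma over all genes.

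The targets of 2 nuclear receptors were counted because Lpcat3 is known as a target of LXR and Chkb lies next to Cpt1b, a known target of PPARalpha. Like the members and the other lists, both were chosen with earlier results of these data known. Their counts are therefore a description and not a test. Of the LXR targets, 0 of 9 were called higher and 1 lower (median 0.075), where 0.188% of all tested genes were called lower. The one that fell was Cyp7a1, which starts the conversion of cholesterol to bile acids (-0.998 ± 0.22, limma adjusted p = 0.0389). It was lower in all 37 alternatives, by -1.11 to -0.85, and called in 22 of them, with adjusted p from 0.0200 to 0.219. The call was lost with slide as a fixed block (0.0536), the replicate block, no filter, without slide 1 or slides 4 and 5, and without linseed 1, 3, 4 or 7 or palm 1, 2, 3, 4, 5 or 9. Where 0.57% of all tested genes were called higher, 3 of 9 PPARalpha targets were called higher and 0 lower (median 0.76). The 3 called were Cyp4a10, a fatty acid omega-hydroxylase (1.59 ± 0.23, limma adjusted p = 0.00218), Ehhadh of peroxisomal beta-oxidation (0.83 ± 0.14, adjusted p = 0.00446) and the pantetheinase Vnn1 (1.17 ± 0.20, adjusted p = 0.00676). They were called in 36, 35 and 34 of the 37 alternatives.

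Hepatocyte markers, including Alb and Ttr, were high on every array. Their summed level was 1187 to 1880 on linseed and 1311 to 1666 on palm (in multiples of the 75th percentile signal). No gene of the 11 marker lists was called, where 0.759% of all tested genes were. Of the adipocyte markers, 3 of 7 were tested (Cfd, Plin4 and Fabp4), all higher on linseed with a median of 1.097 and 2 of them at an unadjusted p under 0.05, and their summed level was 5.65 to 44.3 on linseed and 2.25 to 15.7 on palm. Adipoq, Lep, Retn and Plin1, which define adipocytes, did not pass the filter on dim probes. In a whole liver sample a change in the number of cells of a type and in RNA per cell cannot be told apart, and the part of these markers in the rises of Chkb, Etnk1 and Chpt1 was not tested.

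For each called member, the genes whose values followed it most closely from mouse to mouse were sought among 11965 genes with a value on all 18 arrays, after each diet's mean was removed. For Chkb they were Arglu1 (Pearson r = 0.811), Rpgrip1 (0.766) and Usp20 (0.763). For Etnk1 they were Tnks (0.871), 0610009E02Rik (0.848) and Akap1 (0.832). For Chpt1 they were Agmo (0.790), Pdpr (0.780) and Acsm3 (0.739). With the slide means removed as well, r was 0.733 to 0.865 for the 9 genes. None of them was called between the diets, and their differences ran from -0.071 to 0.16. The arrays share slides and scaling, so these correlations are a description of these 18 arrays.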

How the data were processed

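Liver RNA of 18 mice (8 linseed, 10 palm, grouped by sample title) was hybridised to 1-colour Agilent arrays from 1 µg of total RNA, per the labels' protocols. The authors obtained spot intensity values with Agilent Feature Extraction 9.5.3.1, per the file headers, which also give mm9 as the build of probe positions. Background is subtracted in the processed signal, and no scaling between arrays is recorded. The authors' deposited value table holds log2 values of 18060 probes, and served as an alternative (scaling: not given in the sources used here). The submitters' processing notes name limma, with no version.

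From these files, log2 processed signals minus each array's 75th percentile over non-control spots (117 to 204 intensity units) were computed. Spots that the software marked non-uniform or population outlier were left out (238 to 1703 per array), and repeated spots were averaged by probe. A probe was kept if well above background on at least 8 arrays (17258 to 22445 probes per array were) with values on at least 6 arrays per group, and a gene was represented by its brightest kept probe. The test was limma's moderated test (version 3.58.1, R 4.3.3, two-sided, with no covariate), checked on simulated data. The simulated arrays had independent errors and no slide effect, so the check does not cover arrays that share slides. Names were updated through RefSeq, assembly GRCm38.p6 (26055 probes by accession, 3195 by symbol, 930 by synonym, 9249 unchanged). Values with marked spots kept are given, and named as such, for Pcyt2, which marks left untested, and for Etnk2 and Pemt, whose brightest probes were marked on 7 and 9 arrays. Precision is limited by the number of arrays.

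The members and lists were chosen with earlier results of these data known. Named genes are every member and probe, up to 3 called genes of a list (or the one with the smallest p), Cpt1b as the neighbour of Chkb, and the 3 genes most like each called member. Tried alternatives were other background correction, scaling, filters, probe rules, blocks, eBayes settings, array weights, the authors' table and left-out arrays and slides. Slides come from header barcodes. The 3 arrays called slide 1 have none and were grouped by their shared scan group, an assumption.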

Additional observations from a re-analysis of the deposited data

How the results depend on the processing

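Chkb, Etnk1 and Chpt1 were higher on linseed under each of the 37 alternatives run for them, and their calls held in 9, 11 and 15 of these. Cept1 and Lpcat3 stayed higher and Etnk2 lower, without a call. The main values gave 121 called genes, 3 called members and 5 called genes of the pathway lists. Normexp background correction gave 68 genes (58 higher and 10 lower, against 91 and 30) and 1 member, Chpt1. Median scaling gave 1 member, Chpt1, and quantile scaling and the mean of probes 1 each, Etnk1. A percentile over unmarked spots gave 42 genes and 0 members, no filter on dim probes 44 genes, 0 members and 3 list genes, and array weights 0 members. Slide as a fixed block gave 1 member, slide as a random block 200 genes, and a change of at least 1.5-fold 63 genes and 0 members. Without slide 1 there were 30 genes, 0 members and 2 list genes, and without slides 4 and 5 there were 19, 0 and 1. Every probe on its own with marked spots kept, chosen after seeing the data, gave 185 genes and 3 members. Leaving out 1 array gave 51 to 142 genes, 0 to 2 members and 3 to 6 list genes. Fewer samples enter when arrays or slides are left out, and more genes are tested without a filter; for the other settings the cause was not tested.

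Whether replicate numbers pair the mice could not be settled from the values. Deviations of same-numbered mice correlated at -0.239 to 0.4998, and 2 of 8 linseed mice correlated best with their own number. Most same-numbered mice shared a slide, and those on different slides, numbers 6 and 8, gave 0.0012 and -0.239. Pairing and slide therefore cannot be told apart here. With the replicate number as a block, 18 genes, 0 members and 0 list genes were called, and Chkb minus Chka was 0.52 (exact permutation test, adjusted p = 0.0391).

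Members near 0 changed sign. Chka was 0.0069 with normexp, 0.030 with median scaling and -0.082 to 0.070 with 1 array left out. Pcyt1a was -0.022 with quantile scaling, -0.027 over unmarked spots, -0.018 with array weights and in the authors' table, -0.027 without slide 1 and -0.023 to 0.044 with 1 array left out. Pemt was 0.0037 with median scaling and -0.12 to 0.050 with 1 array left out. Among pairs, Chkb minus Chka was 0.39 with a fixed slide block and 0.29 to 0.45 with 1 array left out. Etnk1 minus Etnk2 was 0.27 with normexp, 0.42 with a fixed slide block, 0.56 without slides 4 and 5 and 0.32 to 0.50 with 1 array left out. Chpt1 minus Cept1 was 0.23 to 0.34 with 1 array left out. Pcyt1a minus Pcyt2 was -0.0067 with quantile scaling, -0.0011 without slide 1 and -0.0051 to 0.060 with 1 array left out. No scaling moved the median of all genes by more than 0.043.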
